A study of Danio rerio with 3 samples.

Results

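Cholangiocytes are the epithelial cells that line the bile ducts. They were sought in zebrafish liver by the counts themselves, and the members were chosen by having fewer than 10000 unique molecular identifiers (UMIs, which count captured mRNA molecules) in the cell and at least 1 UMI in 3 or more of 9 genes: epcam, anxa4, krt4, cldnc, cldn15la, tm4sf4, elf3, sox9b and her9. This rule was met by 353 of the 3718 cells under 10000 UMIs, out of 6055 cells in all. They came from 3 livers, 1 per group, each processed by droplet single-cell RNA sequencing with 3′ chemistry. The HepABC HCC liver came from a Tg(fabp10a-pt-β-catenin) fish with hepatocellular carcinoma (HCC), untreated as a larva, and contributed 210 of the cells. By the study's methods this fish, unlike the others, also carried the Wnt reporter Tg(7xTCF-Xla.Siam:mCherry), which the labels leave out. The CreLox HCC liver came from a Tg(fabp10a-CreERT2;fabp10a-flox-β-catenin) fish with HCC and contributed 100. The no HCC liver came from a Tg(fabp10a-flox-β-catenin) fish without Cre and without HCC, and contributed 43. CreLox HCC and no HCC fish had both received 10 µM 4-hydroxytamoxifen as larvae, from day 3 to day 6. All fish were males aged 6 months. The β-catenin transgenes and CreERT2 were driven by the promoter of fabp10a, a fatty acid binding protein gene of hepatocytes, and the Wnt reporter by TCF sites. A piece of each liver was used for histology, so a library samples what remained of 1 liver.

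Bile ducts arise from the same embryonic progenitors as hepatocytes. Notch signaling and the transcription factors Sox9 and Onecut1 are known for their part in the biliary fate, and duct cells are held together by tight junctions that keep bile inside the lumen. In zebrafish, an annexin encoded by anxa4 is the antigen of an antibody widely used to stain bile ducts.

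Each group had 1 library, so the variation between animals is unknown and no difference was tested. Levels are UMIs summed over the cells of a set and scaled to 1000000 UMIs of that set (CPM). Values in brackets are exact 95% intervals, which cover counting error only. Log2 folds are of CPM + 10, and a gene was counted as past the fold at a log2 fold of at least 2 with 10 or more UMIs in the upper set, spread over at least 10% of its cells. All other cells under 10000 UMIs of the same library served as the comparison (718, 1826 and 821 cells in HepABC HCC, CreLox HCC and no HCC). They mix hepatocyte-like and leukocyte-like cells in proportions that differ between livers. HepABC HCC shared 8 cell barcodes with CreLox HCC and 1 with no HCC, and CreLox HCC shared 2 with no HCC. Among the cells meeting the rule 0 were shared. The gene cldn15la was not listed in the no HCC counts, so the rule rested on 8 genes there. No sequences are printed.

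Cells meeting the rule made up 22.6% (19.97 to 25.5) of HepABC HCC cells under 10000 UMIs. The CreLox HCC share was 5.19% (4.24 to 6.28), and the share of no HCC was 4.98% (3.62 to 6.65). The label Cholangiocytes did not hold for most of them in the livers with HCC. There, 186 of 210 cells in HepABC HCC and 80 of 100 in CreLox HCC met the rule on anxa4, cldnc, cldn15la and tm4sf4 alone, against 0 of 43 in no HCC. In no HCC, where cldn15la was not listed, only anxa4, cldnc and tm4sf4 together could do this, so the contrast is not like for like. The most frequent combination in both HCC livers was anxa4, cldn15la and tm4sf4 and nothing else, in 83 and 56 cells.

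Epcam, an adhesion molecule of epithelia that hepatocytes largely lack, was found in 17 of the 210 HepABC HCC cells (8.10%), 16 of the 100 CreLox HCC cells (16.0%) and 37 of the 43 no HCC cells (86.0%). Comparison cells with an epcam UMI numbered 1 of 718 for HepABC HCC, 0 of 1826 for CreLox HCC and 0 of 821 for no HCC, and the counts of 0 allow shares of up to 0.164% for CreLox HCC and 0.365% for no HCC. Leukocyte-like comparison cells, which should lack the gene, had 0 epcam UMIs. Their median depths were 1879.5, 1580 and 1348 UMIs in HepABC HCC, CreLox HCC and no HCC, where epcam-positive cells had medians of 1966, 2211.5 and 2661. Cells meeting the rule had been taken out of the comparison cells, which favours a count of 0. In CreLox HCC 1 epcam-positive cell, with 5 epcam UMIs, lay in a leukocyte-like cluster. Of the epcam-positive cells of HepABC HCC, CreLox HCC and no HCC, 12, 14 and 28 had 2 or more epcam UMIs. Because epcam is 1 of the 9 genes, these counts describe the selection, and splitting the cells by epcam was a choice made after seeing the data.

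Clustering that left out the 9 genes placed the cells with and without epcam mostly apart. A small biliary-like cluster held 23, 18 and 39 cells in HepABC HCC, CreLox HCC and no HCC. It took 16 of 17, 14 of 16 and 34 of 37 of the epcam-positive cells. Its name came from a marker list that included the 9 genes. The resolution was chosen after seeing the data, so that such a cluster stood apart in CreLox HCC. The cluster is therefore no independent support for the split by epcam. Of the cells that met the rule without epcam, 183 of 193 in HepABC HCC and 81 of 84 in CreLox HCC fell in hepatocyte-like clusters, against 2 of 6 in no HCC. UMIs of hepatocyte marker genes made up a median of 5.67%, 3.50% and 4.19% of each epcam-positive cell in HepABC HCC, CreLox HCC and no HCC, and 17.1%, 16.0% and 12.01% of each epcam-negative cell. Other hepatocyte-like cells under 10000 UMIs had 16.1%, 16.3% and 25.6%, and leukocyte-like cells, a guide to free RNA, had 3.52%, 3.75% and 7.84%. The epcam-negative cells of the HCC livers therefore lay at the hepatocyte-like level and the epcam-positive cells near the leukocyte-like level. In what follows, "epcam-positive" and "epcam-negative" mean cells that met the rule with and without an epcam UMI, and no cell type name is given to the second set.

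**Figure D1:**
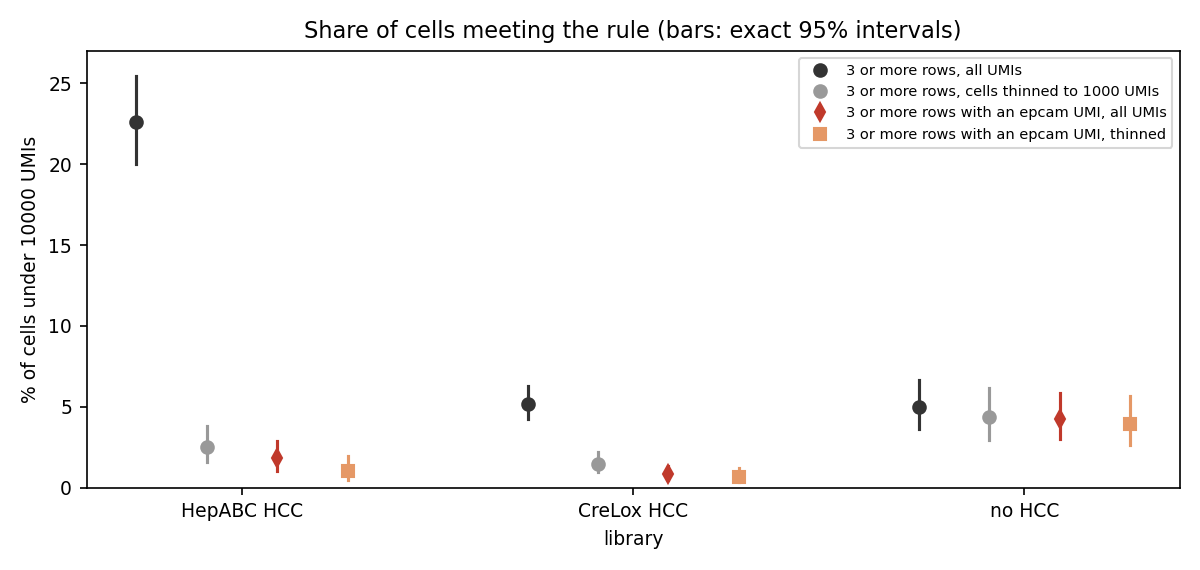
Percent of cells under 10000 UMIs (vertical axis) in HepABC HCC, CreLox HCC and no HCC for 4 measures: all cells meeting the rule, those with an epcam UMI, and both again after thinning each cell to 1000 UMIs. Symbols are shares and vertical lines are exact 95% intervals for counting error. HepABC HCC is highest for the rule as given (22.6%) and no HCC is highest for the other measures (4.28% with epcam).

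The number of cells meeting the rule moved with depth. Epcam-negative cells of HepABC HCC, CreLox HCC and no HCC had medians of 7408, 3437.5 and 1351.5 UMIs, against 3072.5, 1549.5 and 1408 in the comparison cells. Among hepatocyte-like cells, the share meeting the rule in HepABC HCC was 2.90% under 2000 UMIs, 18.9% from 2000 to under 5000 and 42.7% from 5000 to under 10000. In CreLox HCC the same shares were 1.99%, 11.8% and 19.8%, and in no HCC 2.23%, 0% and 0% (4 of 179, 0 of 42 and 0 of 42 cells). After each cell was thinned to 1000 UMIs, 2.53% of HepABC HCC cells (1.59 to 3.81), 1.501% of CreLox HCC cells (0.964 to 2.23) and 4.37% of no HCC cells (2.99 to 6.14) still had 3 or more of the genes, and the order of the livers was no longer the unthinned one. These shares are over all cell types. Among thinned hepatocyte-like cells of any depth, 3.66% of HepABC HCC (90 of 2458), 1.36% of CreLox HCC (17 of 1248) and 0.242% of no HCC (1 of 413) had 3 or more. The thinning left out 59, 327 and 154 cells of HepABC HCC, CreLox HCC and no HCC under 1000 UMIs. Epcam together with 3 or more of the genes was found in 1.04%, 0.688% and 3.94% of thinned cells of HepABC HCC, CreLox HCC and no HCC, and in 1.83%, 0.831% and 4.28% of their cells before thinning. Each liver was dissociated once, so a difference in which cells survived cannot be told apart from a difference in the liver.

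Cells with exactly 3 of the 9 genes numbered 158, 85 and 9 in HepABC HCC, CreLox HCC and no HCC, and cells with exactly 2, just outside, numbered 221, 320 and 28. Of the 12 genes outside the rule that set the cells of no HCC apart most (named below), cells with exactly 3 genes had a median of 2, 1 and 3, and cells with exactly 2 had a median of 2, 0 and 0. In HepABC HCC the medians on both sides of the threshold were equal.

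**Figure D2:**
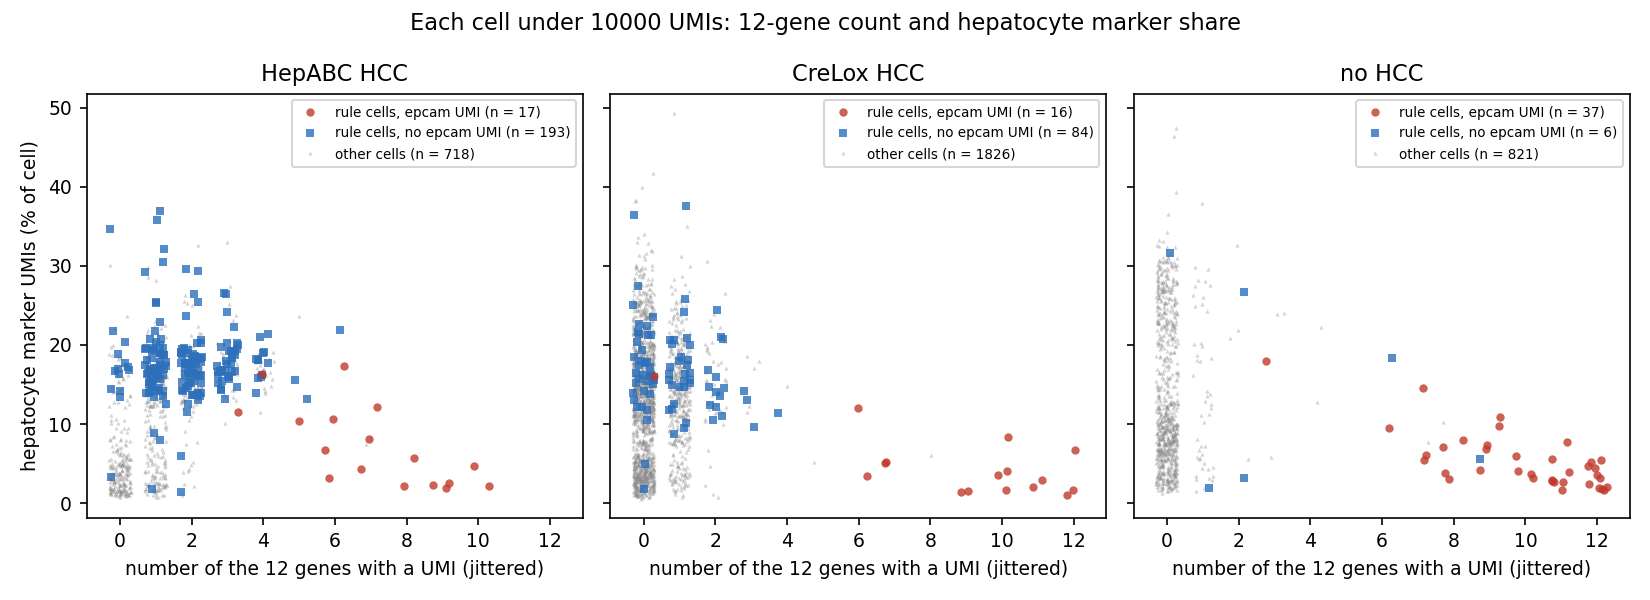
Each point is a cell under 10000 UMIs: the percent of its UMIs from hepatocyte marker genes (vertical axis) against how many of 12 genes had a UMI in it (horizontal axis, jittered), in 1 panel per library, for epcam-positive, epcam-negative and other cells. Epcam-positive cells (medians of 7, 10 and 11 genes) lie at low hepatocyte percentages, while the epcam-negative cells of the HCC livers (medians of 2 and 1 genes) lie among the other cells.

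The 9 genes of the rule were unevenly spread over cells with and without epcam, and since they chose the cells their values are only a description. Anxa4 stood at 9345, 16596 and 22337 CPM in the epcam-positive cells of HepABC HCC, CreLox HCC and no HCC, at 390, 990 and 1890 CPM in the epcam-negative cells and at 327, 653 and 154 CPM in the comparison cells. Tm4sf4, a membrane protein related to tetraspanins, had 2090, 2626 and 3251 CPM in epcam-positive cells of HepABC HCC, CreLox HCC and no HCC, against 168, 110 and 9.14 CPM in comparison cells. The tight junction gene cldnc had 305, 758 and 664 CPM in epcam-positive cells of HepABC HCC, CreLox HCC and no HCC, against 10.6, 12.97 and 9.71 CPM in comparison cells. All of these were highest in epcam-positive cells in every library.

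Of the 3 transcription factors of the rule, elf3 and sox9b were rare in comparison cells. Elf3, an ETS factor of epithelia, had 282, 244 and 244 CPM in epcam-positive cells of HepABC HCC, CreLox HCC and no HCC, from 12, 9 and 25 UMIs, and 1, 4 and 0 UMIs in all comparison cells. Sox9b had 3, 7 and 20 UMIs in epcam-positive cells of HepABC HCC, CreLox HCC and no HCC, and 0, 0 and 4 in comparison cells. Her9, a bHLH repressor, had 141, 217 and 273 CPM in epcam-positive cells of HepABC HCC, CreLox HCC and no HCC, against 3.66, 9.27 and 28.0 CPM in comparison cells, where it had 10, 35 and 49 UMIs. In the epcam-negative cells of HepABC HCC, CreLox HCC and no HCC, elf3 had 3, 2 and 3 UMIs, sox9b 0, 1 and 3 and her9 3, 6 and 2, and in no HCC these few UMIs gave 153 CPM of elf3, 153 CPM of sox9b and 102 CPM of her9 over 6 cells. Elf3 UMIs were seen in 5 of 17, 7 of 16 and 14 of 37 epcam-positive cells of HepABC HCC, CreLox HCC and no HCC, so at these depths a cell without one may still express it.

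Krt4 and cldn15la did not mark epcam-positive cells. Krt4, a keratin of surface epithelia and a marker in the rule, had 0 of the 42591 UMIs of epcam-positive cells in HepABC HCC and 0 of the 36936 in CreLox HCC, so that a low level was not detectable there, and 8 UMIs in 2 of 37 cells in no HCC. Cldn15la had 2 UMIs and 1 UMI in the epcam-positive cells of HepABC HCC and CreLox HCC, and 158 and 283 CPM in the epcam-negative cells against 29.6 and 21.7 CPM in comparison cells. Most epcam-negative cells of the HCC livers had been chosen through cldn15la, so its level there follows from the rule.

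**Figure D3:**
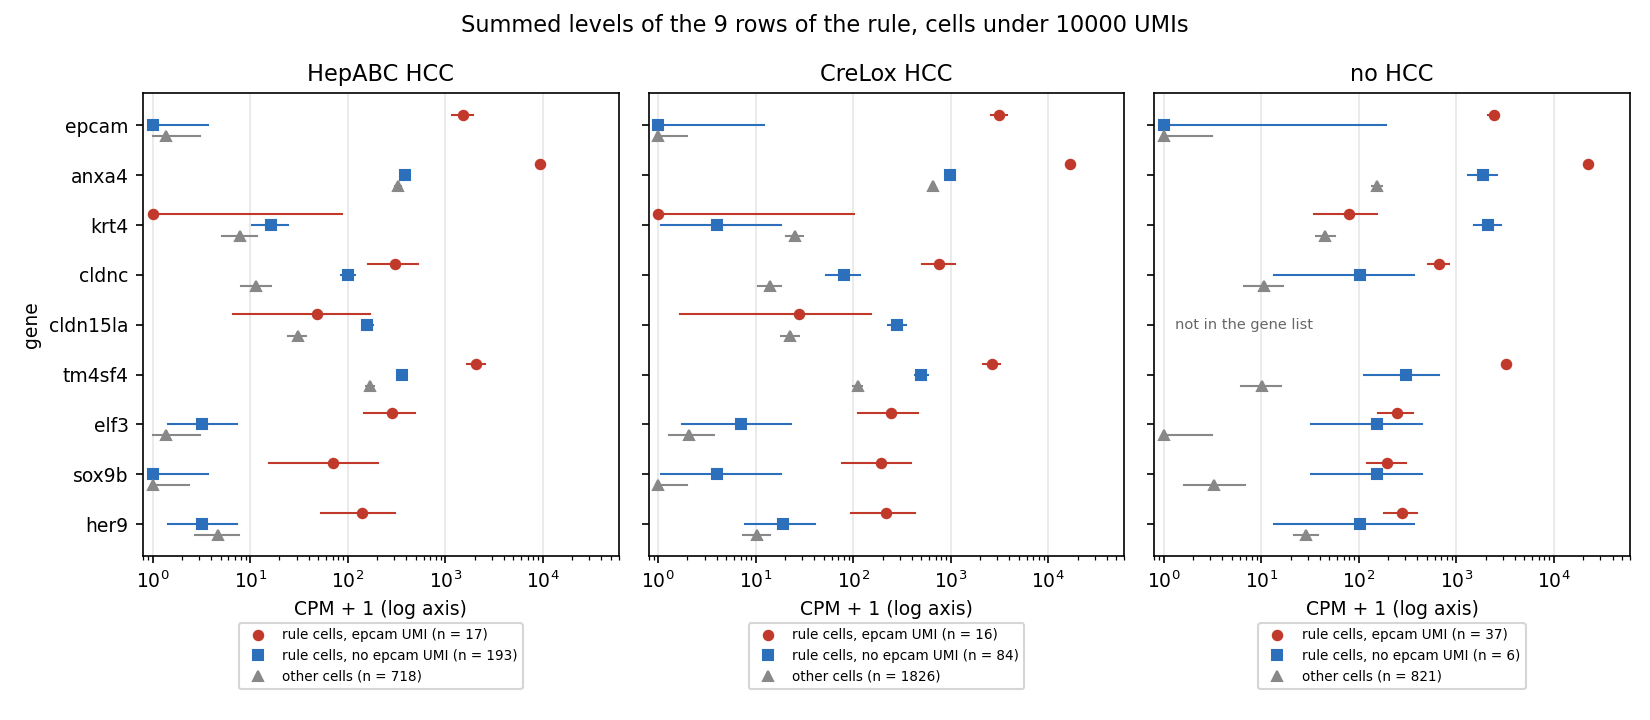
Levels (CPM + 1, log axis) of the 9 genes of the rule in 1 panel per library, for epcam-positive, epcam-negative and other cells, with exact 95% Poisson intervals. Epcam, anxa4, tm4sf4, elf3, sox9b and her9 are highest in epcam-positive cells, whereas cldn15la in the HCC livers is highest in epcam-negative cells (158 and 283 CPM).

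Over all cells meeting the rule, 2 of 2483 genes were past the fold over comparison cells in HepABC HCC (0.0805%), both of them genes of the rule (cldnc and cldn15la). The CreLox HCC count was 18 of 1979 genes (0.91%), and that of no HCC was 191 of 1252 (15.3%). Over other hepatocyte-like cells only, the counts were 1 for HepABC HCC (0.0403%), 36 for CreLox HCC (1.82%) and 430 for no HCC (34.3%). Cldnc was the 1 gene past the fold in every library. For epcam-positive cells alone, 40 of 455 genes were past the fold over comparison cells for HepABC HCC (8.79%), 78 of 405 for CreLox HCC (19.3%) and 196 of 1085 for no HCC (18.1%). With TMM factors in place of total UMIs, the log2 folds of epcam-positive cells of HepABC HCC, CreLox HCC and no HCC moved by -0.98, -1.21 and -0.69, and the counts became 29, 44 and 139. Values below are with total UMIs.

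The 12 genes outside the rule with the highest fold in no HCC gave a set that the HCC livers had no part in choosing. In no HCC, where they were chosen, their levels are a description. All 12 had a log2 fold of at least 2 in the epcam-positive cells of both HCC livers, between 3.01 and 8.18 in HepABC HCC and between 4.32 and 9.90 in CreLox HCC, although only 8 and 11 of them had enough UMIs to be counted. In the epcam-negative cells of those livers 0 of 12 had such a fold over comparison cells. Under TMM factors 8 and 11 of them were again counted as past the fold in HepABC HCC and CreLox HCC.

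The gene si:dkey-96g2.1, whose function is not annotated in the files, had the highest fold in no HCC. Its level in epcam-positive cells was 6292 CPM for HepABC HCC (5562 to 7093), 12562 CPM for CreLox HCC (11445 to 13759) and 14829 CPM for no HCC (14093 to 15594), against 11.7, 3.18 and 13.7 CPM in comparison cells of HepABC HCC, CreLox HCC and no HCC. It was found in 16 of 17, 15 of 16 and 37 of 37 epcam-positive cells of HepABC HCC, CreLox HCC and no HCC. Epcam-negative cells had 3 UMIs of it in HepABC HCC and 0 in CreLox HCC. Per cell, it ranged in epcam-positive cells from 0 to 22004 CPM in HepABC HCC (median 5085), from 0 to 21962 CPM in CreLox HCC (median 9824) and from 1442 to 34429 CPM in no HCC (median 13833). The sets of the 3 livers overlapped, and since single cells hold few UMIs these ranges include counting noise.

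Lgals2b, which encodes a galectin, a carbohydrate-binding protein, had 9227, 18898 and 19779 CPM in epcam-positive cells of HepABC HCC, CreLox HCC and no HCC, and 697, 246 and 38.8 CPM in comparison cells. The ratio was 13.2 (11.8 to 14.8) for HepABC HCC, 76.7 (69.4 to 84.7) for CreLox HCC and 509 (400 to 658) for no HCC. The smaller ratios of the HCC livers went with higher lgals2b in their comparison cells. The epcam-positive level of HepABC HCC was 14590 CPM without its 3 cells of the most UMIs. Per cell, the lowest, median and highest lgals2b levels were 0, 11982 and 30631 CPM in HepABC HCC, 0, 13632 and 43264 CPM in CreLox HCC, and 3484, 18264 and 41340 CPM in no HCC. The sets of the 3 livers overlapped widely.

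Several of the 12 encode junction or membrane proteins. Cldn2, a tight junction claudin, had 822, 1760 and 1787 CPM in epcam-positive cells of HepABC HCC, CreLox HCC and no HCC, against 5.12, 4.501 and 6.28 CPM in comparison cells, and was detected in 12 of 17, 14 of 16 and 30 of 37 of them. Cx30.3, a connexin of gap junctions, had 352, 1083 and 1367 CPM in epcam-positive cells of HepABC HCC, CreLox HCC and no HCC. In their comparison cells it had 0, 3 and 4 UMIs, so it was at least 321-fold higher in HepABC HCC when 3 UMIs are taken as the floor over all comparison cells. The tetraspanin gene cd9b had 939, 1706 and 1582 CPM in epcam-positive cells of HepABC HCC, CreLox HCC and no HCC, against 42.1, 16.9 and 3.43 CPM in comparison cells. Spint2, a serine protease inhibitor of epithelia, had 399, 569 and 732 CPM in epcam-positive cells of HepABC HCC, CreLox HCC and no HCC, against 5.86, 2.65 and 4.00 CPM in comparison cells. Of these 4 genes, cd9b had the highest comparison level in HepABC HCC.

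The rest of the 12 were the forkhead factor foxp4 (352, 433 and 625 CPM in epcam-positive cells of HepABC HCC, CreLox HCC and no HCC), the Ras-association gene rassf7b (164, 460 and 576 CPM in the same cells) and genes without an annotated role. The gene si:ch211-137i24.10 had 2043, 2951 and 4344 CPM in epcam-positive cells of HepABC HCC, CreLox HCC and no HCC, against 58.2, 12.2 and 10.9 CPM in comparison cells. The gene zgc:193726 had 188, 1868 and 683 CPM in the same epcam-positive cells, from 8, 69 and 70 UMIs, and zgc:198329 and CR396595.1 had 6 and 4 UMIs in HepABC HCC. The HepABC HCC values of the least abundant genes thus rest on a handful of UMIs.

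Counted per cell, epcam-positive cells of HepABC HCC, CreLox HCC and no HCC had a median of 7, 10 and 11 of the 12 genes, epcam-negative cells 2, 1 and 2, and comparison cells 1, 0 and 0. After thinning to 1000 UMIs the medians were 6, 7 and 8 in epcam-positive cells, 1, 0 and 1 in epcam-negative cells and 0 in each library's comparison cells. At equal depth epcam-positive cells were still the highest in each library, while epcam-negative and comparison cells of CreLox HCC tied.

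**Figure D4:**
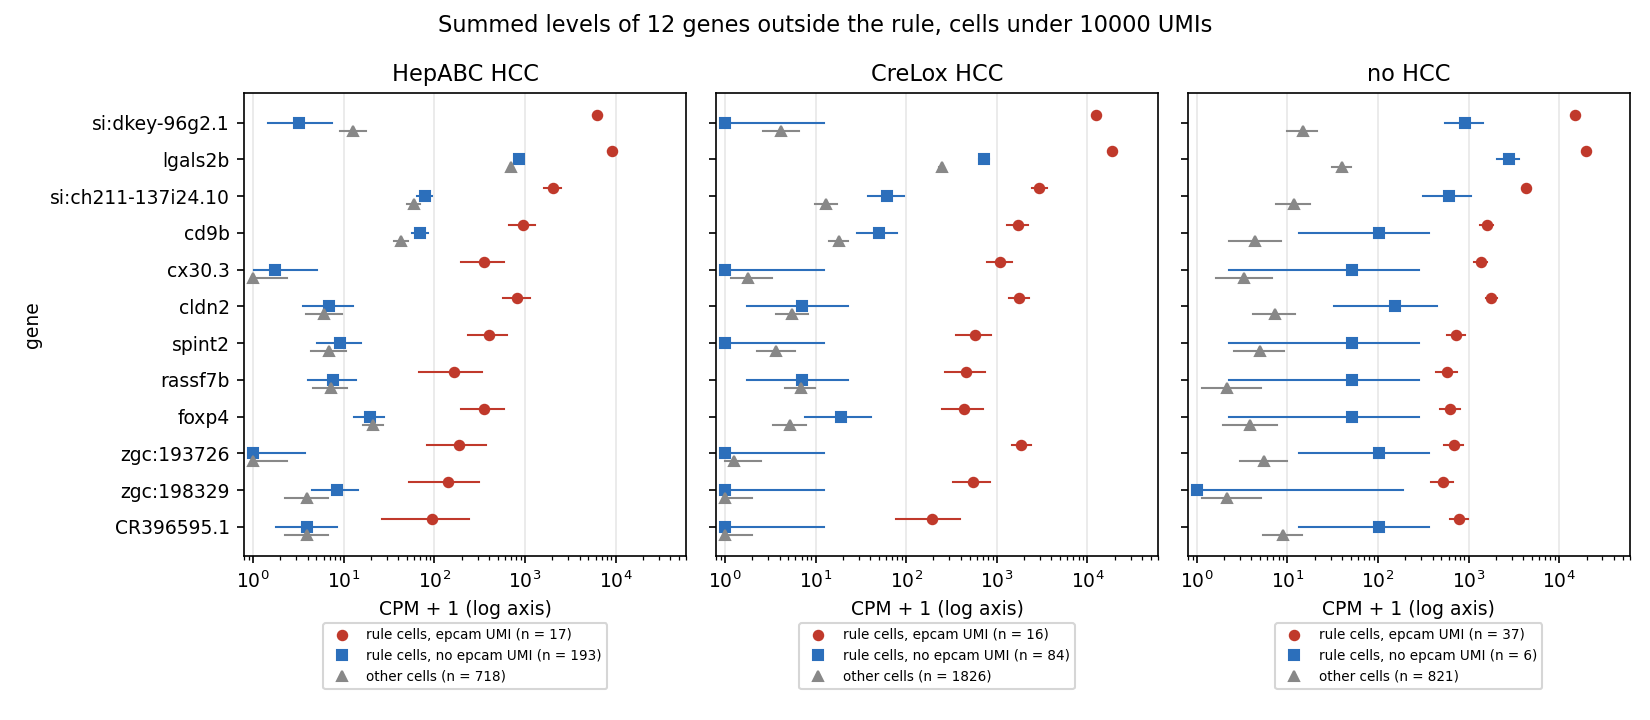
Levels (CPM + 1, log axis) of the 12 genes with the highest fold in no HCC, in 1 panel per library, for epcam-positive, epcam-negative and other cells, with exact 95% Poisson intervals. Epcam-positive cells are highest for every gene, and si:dkey-96g2.1 reaches 6292, 12562 and 14829 CPM.

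Of the 184 genes outside the rule that were past the fold in no HCC, 182 were listed in both HCC libraries. Of these 182, 90 had a log2 fold of at least 2 in epcam-positive cells of HepABC HCC (49.5%, median 1.97) and 137 in those of CreLox HCC (75.3%, median 2.81), whatever their number of UMIs, and 0 in the epcam-negative cells of either liver. With 10 or more UMIs in the epcam-positive cells, a filter that favours genes high there, 26 of 39 and 50 of 56 were past the fold in HepABC HCC and CreLox HCC. The backgrounds over all genes counted with this filter were the 8.79% and 19.3% given above for epcam-positive cells, and 0.0805% and 0.111% for epcam-negative cells. No share over all genes was taken without the filter, where a few UMIs can reach the fold. The 49.5% and 75.3% therefore have no background beside them.

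Outside the rule, 35, 74 and 189 genes were past the fold in epcam-positive cells of HepABC HCC, CreLox HCC and no HCC. HepABC HCC and CreLox HCC had 27 of them in common (77.1% and 36.5% of each), HepABC HCC and no HCC 26 (74.3% and 13.8%), and CreLox HCC and no HCC 51 (68.9% and 27%). No share over all genes counted in both livers was taken, so these percentages have no background beside them. The filter on UMIs in epcam-positive cells also favours genes high there. The 23 genes common to all included, beside 8 of the 12, the E-cadherin gene cdh1, the claudin cldn15lb, the caveolin cav2, the membrane protein gene pdzk1ip1, the ectonucleotidase entpd8, and icn and s100v2 of the S100 family of calcium-binding proteins.

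Cdh1, which builds adherens junctions, had 470, 1029 and 527 CPM in epcam-positive cells of HepABC HCC, CreLox HCC and no HCC, against 44.7, 13.2 and 2.86 CPM in comparison cells. Cldn15lb had 822, 3953 and 1650 CPM in epcam-positive cells of HepABC HCC, CreLox HCC and no HCC, against 85.3, 118 and 45.7 CPM in comparison cells. Of the list of adherens, tight and desmosome junction genes, 21, 20 and 20 were listed in HepABC HCC, CreLox HCC and no HCC, but only 2, 4 and 10 of them had enough UMIs in epcam-positive cells to be counted, so that counted genes are those high there. Of these, 1, 4 and 7 were past the fold. In CreLox HCC the junction plakoglobin jupa (433 against 37.1 CPM) and the junctional adhesion molecule f11r.1 (406 against 31.8 CPM) were among these. The further list of biliary genes had 4 of 7, 6 of 8 and 8 of 10 counted genes past the fold in HepABC HCC, CreLox HCC and no HCC, under the same filter. Over all genes counted with this filter, the shares past the fold were 8.79%, 19.3% and 18.1% in HepABC HCC, CreLox HCC and no HCC.

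Notch pathway and transcription factor genes were seen in few cells. Notch3, a receptor, had 5, 20 and 20 UMIs in epcam-positive cells of HepABC HCC, CreLox HCC and no HCC, at 117, 541 and 195 CPM, against 0.732, 1.85 and 4.57 CPM in comparison cells. Her15.1.1, a Notch target of the Hes family with near-identical copies that could share its reads, had 11, 18 and 28 UMIs in 5, 5 and 7 epcam-positive cells of HepABC HCC, CreLox HCC and no HCC, and 1 cell held 45.5%, 50% and 32.1% of them. Onecut1 had 4, 5 and 22 UMIs in epcam-positive cells of HepABC HCC, CreLox HCC and no HCC, and 0 in the comparison cells of every library. Hnf1ba, another biliary transcription factor, had 2, 0 and 11 UMIs in epcam-positive cells of HepABC HCC, CreLox HCC and no HCC. Her15.1.1 was past the fold in each library, with log2 folds of 4.75, 5.53 and 4.82. The list of Notch genes does not hold it under this name, and of that list 0 genes had enough UMIs to be counted in HepABC HCC, while 1 gene could be counted in CreLox HCC, which was past the fold, and 2 in no HCC, of which 1 was past it.

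Among transport genes, the water channel aqp8a.1 had 1479, 5063 and 3641 CPM in epcam-positive cells of HepABC HCC, CreLox HCC and no HCC. Its comparison level was 25.3, 219 and 1064 CPM, and it was past the fold in HepABC HCC and CreLox HCC (log2 folds of 5.40 and 4.47) and not in no HCC (1.77). In CreLox HCC aqp8a.1 was also among the leading genes of an endothelial-like cluster of 115 cells, so it was not particular to epcam-positive cells. Keratin 8 (krt8), of simple epithelia, had 2724, 3763 and 3671 CPM in epcam-positive cells of HepABC HCC, CreLox HCC and no HCC, against 1108, 868 and 878 CPM in comparison cells. Krt18, its usual partner, had 3639, 3438 and 4344 CPM in the same epcam-positive cells, against 1239, 576 and 593 CPM. Both keratins were thus also present in the other cells.

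Hepatocyte genes were lower in epcam-positive cells than in hepatocyte-like cells. Fabp10a had 17774, 15811 and 9108 CPM in epcam-positive cells of HepABC HCC, CreLox HCC and no HCC, 41492, 60463 and 57698 CPM in other hepatocyte-like cells and 9429, 13080 and 16613 CPM in leukocyte-like cells. The epcam-positive level was above the leukocyte-like level in HepABC HCC and below it in no HCC. In HepABC HCC 1 cell held 27.6% of the fabp10a UMIs of these cells. The HepABC HCC level fell to 14265 CPM without the 3 cells of the most UMIs. With 2 or more epcam UMIs it fell to 11388 CPM, closer to the leukocyte-like 9429 CPM. In CreLox HCC the epcam-positive level was above as well, but not without the cells outside the biliary-like cluster, where 1 cell held 38.5% of the fabp10a UMIs. With only the 14 epcam-positive cells of the biliary-like cluster the CreLox HCC level was 10475 CPM, below the leukocyte-like level. Without the 3 cells of the most UMIs it was 21394 CPM, above that level. EBFP, the fluorescent reporter of the switch transgene, had 1056 and 2031 CPM in the epcam-positive cells of CreLox HCC and no HCC, against 1273 and 3282 CPM in leukocyte-like cells, which should not make it. The Xenopus β-catenin transgene had 1, 2 and 3 UMIs in epcam-positive cells of HepABC HCC, CreLox HCC and no HCC. EBFP was thus below its leukocyte-like level, which is read as background, and β-catenin was too sparse to compare.

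Set against comparison cells, which mix cell types, 0 of 24, 8 of 22 and 3 of 21 genes of the hepatocyte marker list were past the fold downward in epcam-positive cells of HepABC HCC, CreLox HCC and no HCC (backgrounds of 8.2%, 16.5% and 17.4%). The hepatocyte counts of HepABC HCC and no HCC were thus not above these backgrounds. Of the leukocyte list, 9 of 10, 2 of 8 and 11 of 13 genes were past the fold downward. The pan-leukocyte gene ptprc had 0 UMIs in the epcam-positive cells of every library. Cd74a, the invariant chain of MHC class II, had 892, 1949 and 2421 CPM in epcam-positive cells of HepABC HCC, CreLox HCC and no HCC, and 22552, 12336 and 22484 CPM in leukocyte-like cells. All 18 endothelial genes listed in HepABC HCC had 0 UMIs in its epcam-positive cells, and the endothelial list summed to 27.1 and 39.0 CPM in those of CreLox HCC and no HCC. The part of free RNA in these levels was not tested.

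The genes most different over all cells meeting the rule were in part those of no HCC and in part others in the HCC livers. Si:ch211-137i24.10 and cd9b were among the 12 highest in every library, and lgals2b in CreLox HCC and no HCC. In HepABC HCC the highest were the lectin itln3 (365 against 154 CPM), the tetraspanin tspan13a (40.5 against 12.08 CPM), si:ch211-137i24.10, the growth factor receptor fgfr4 (39.8 against 13.5 CPM) and the cytokine subunit ebi3 (54.7 against 21.6 CPM), with log2 folds between 1.2 and 1.03, short of the fold. Tspan13a and ebi3 had 0 UMIs in the epcam-positive cells of HepABC HCC. In CreLox HCC si:ch211-137i24.10, lgals2b, cd9b, cdh1 and cldn15lb led (log2 folds of 4.03, 3.33, 3.07, 2.63 and 2.27), and basp1, icn, the sterol enzyme msmo1, the chitinase gene chia.6.1, s100a10a, tm4sf5 and the angiotensinogen gene agt followed (1.87 to 1.52). Msmo1, chia.6.1, s100a10a and agt came from the epcam-negative cells, since their epcam-positive levels were 54.1, 27.1, 135 and 27.1 CPM.

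Leukocyte and erythrocyte genes made up most of the lowest. In HepABC HCC they were macrophage genes led by grn1 (49.0 against 2172 CPM) and cd74a (173 against 5224 CPM), in CreLox HCC globin and chemokine genes such as hbba1.1 (10.95 against 606 CPM) and ccl38.6 (57.5 against 980 CPM), and in no HCC globin genes such as hbaa1 (8.20 against 4965 CPM). The 8 lowest also held fabp11a in CreLox HCC and mb in no HCC, both leading genes of an endothelial-like cluster of no HCC. Past the fold downward were 45 of 451 genes for HepABC HCC (9.98%), 23 of 484 for CreLox HCC (4.75%) and 67 of 499 for no HCC (13.4%).

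Set against other hepatocyte-like cells, the epcam-negative cells differed in few genes. In HepABC HCC 1 of 2483 genes was past the fold (0.0403%), the rule gene cldnc (99.6 against 11.1 CPM). In CreLox HCC 3 of 1802 were (0.166%): the rule gene cldn15la (283 against 28.1 CPM), the actin regulator pfn1 (232 against 42.2 CPM) and cd74a (932 against 37.9 CPM). A single cell held 56.6% of the pfn1 UMIs and 96.1% of the cd74a UMIs, and 2 of these 84 cells lay in leukocyte-like clusters. The 6 epcam-negative cells of no HCC had 95 of 274 genes past the fold (34.7%). The hepatocyte marker genes had a median log2 fold of 0.18 for HepABC HCC and 0.11 for CreLox HCC, and 0 of 24 counted genes were past the fold in each of these livers. The excess of cldnc and cldn15la follows from the rule, which chose cells by them. Si:dkey-96g2.1 had 3 UMIs in the 193 epcam-negative cells of HepABC HCC and 0 in the 84 of CreLox HCC.

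Genes shared with s100a10-high tumor hepatocytes were sought in the HCC livers. S100a10, in mammals a partner of annexin A2 at the cell membrane, has 2 zebrafish genes, s100a10a and s100a10b. Hepatocyte-like cells of any depth were called high when the 2 genes together reached 500 CPM in the cell, which gave 1064 high and 1226 low cells in HepABC HCC, and 683 high and 699 low cells in CreLox HCC. Their median depths were 20883.5 and 17567 UMIs in HepABC HCC and 1569 and 1986 UMIs in CreLox HCC. In shallow cells 1 UMI decides the class. A gene was called shared when both log2 folds, of the cells meeting the rule over comparison cells and of high over low hepatocyte-like cells, were at least 1. Cells that met the rule were left out of the high and low sets. By the same limit, 75 of the 184 in hepatocyte-like clusters were high in HepABC HCC, and 62 of 82 in CreLox HCC. The comparison cells include many of the high and low cells. The folds are therefore not independent, and the sharing is a description.

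In HepABC HCC 0 of 4330 genes were shared (0%), where 15 passed in cells meeting the rule and 9 in s100a10-high cells. In CreLox HCC 40 of 2180 were shared (1.83%), which is 41.7% of the 96 genes that passed in cells meeting the rule and 45.5% of the 88 that passed in s100a10-high cells. This sharing was largely that of the epcam-negative cells. On their own they shared 0 of 4170 genes in HepABC HCC and 41 of 1908 in CreLox HCC (2.15%), 47.7% of their 86 and 50% of the 82 s100a10-high genes. The 40 shared genes included 3 genes of the rule (cldn15la, tm4sf4 and anxa4), and the 41 included 2 (cldn15la and tm4sf4). Their folds in the chosen cells follow from the rule. Choosing cells by genes that were also higher in s100a10-high cells favours sharing.

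Some of the genes shared in CreLox HCC were low in epcam-positive cells, and 6 are given as examples chosen after their values were seen. Chia.6.1 had 585 CPM in epcam-negative cells and 616 CPM in s100a10-high cells, against 161 CPM in comparison cells and 132 CPM in s100a10-low cells, but 27.1 CPM in epcam-positive cells. The liver fatty acid binding protein gene fabp1b.1 (5338 CPM in epcam-negative, 5294 in s100a10-high and 298 in epcam-positive cells), afp4.1 (27995, 27676 and 2220 CPM), the serpin gene serpina7 (2916, 2894 and 244 CPM) and the elongase elovl6 (186, 213 and 0 CPM) had the same form. The muscle ankyrin-repeat gene ankrd1b (94.5, 44.7 and 0 CPM) did too, although a single cell held 87.1% of its UMIs in epcam-negative cells. None of these 6 genes was shared by the epcam-positive cells.

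Epcam-positive cells shared 15 of 383 genes with the s100a10-high hepatocyte-like cells of CreLox HCC (3.92%), which is 14.9% of the 101 genes that passed in epcam-positive cells and 68.2% of the 22 that passed in s100a10-high cells. The 383 genes needed 10 or more UMIs in the epcam-positive cells, a filter that favours genes high there. As many as 101 of the 383 passed in those cells, which can raise the 68.2%. Icn, which encodes a calcium-binding protein of the S100 family, had 9124 CPM in epcam-positive and 1160 CPM in s100a10-high cells, against 603 CPM in comparison and 84.8 CPM in s100a10-low cells. Lgals2b had 18898 and 818 CPM against 246 and 79.0 CPM. The remaining genes were basp1, a membrane protein, the thymosin gene tmsb4x, the myosin light chains myl9b and MYL6 (1 of many), the keratin krt18, the S100 gene s100v2, the elongase elovl1b, the transcription factor klf6a, the tetraspanin cd9b, lsp1, si:ch211-137i24.10 and the rule genes tm4sf4 and anxa4. For each of these the s100a10-high level stayed well below that of epcam-positive cells: cd9b, for example, had 1706 CPM in epcam-positive cells, 49.9 CPM in s100a10-high cells and 13.3 CPM in s100a10-low cells. With hepatocyte-like cells limited to those under 10000 UMIs, the count was 9 in place of 15, and with high set at 1000 CPM and 2 UMIs it was 16.

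In HepABC HCC epcam-positive cells shared 1 of 447 genes (0.224%). Only 2 of the 447 passed in s100a10-high cells, so no more than 2 could be shared. The 1 gene is 50% of these, and 1.33% of the 75 that passed in epcam-positive cells. The shared gene was icn, with 4250 CPM in epcam-positive and 802 CPM in s100a10-high cells, against 537 CPM in comparison and 193 CPM in s100a10-low cells. Lgals2b fell short, with 1276 CPM in s100a10-high and 711 CPM in s100a10-low cells (log2 fold 0.83). Icn was thus the gene shared in both livers. With hepatocyte-like cells limited to those under 10000 UMIs, 2 genes were shared in HepABC HCC in place of 1.

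**Figure D5:**
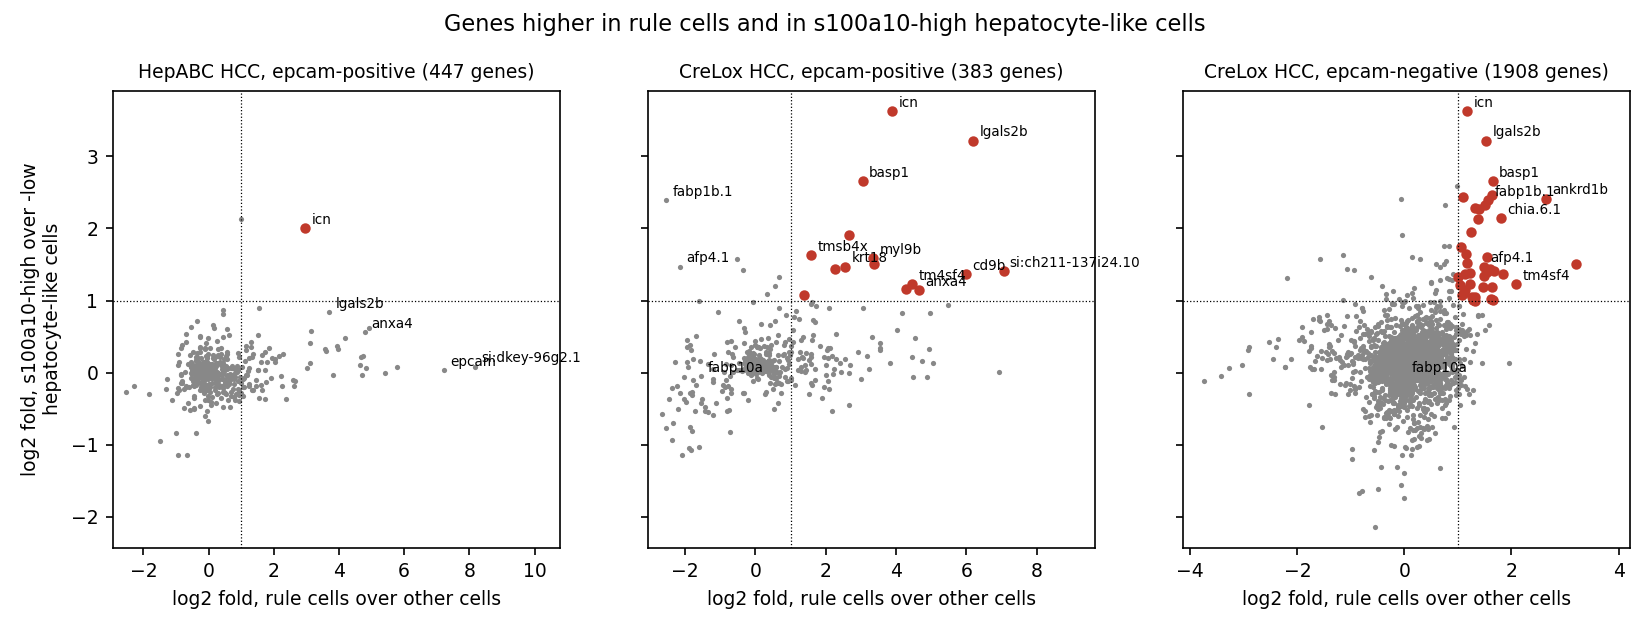
Log2 fold (of CPM + 10) of epcam-positive cells over other cells under 10000 UMIs (horizontal axis) against that of s100a10-high over s100a10-low hepatocyte-like cells (vertical axis), 1 point per gene, for HepABC HCC and CreLox HCC, with epcam-negative cells of CreLox HCC in the last panel. Dotted lines mark a log2 fold of 1. Larger red points lie beyond both lines: icn alone for HepABC HCC, 15 genes for epcam-positive and 41 for epcam-negative cells of CreLox HCC.

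S100a10a itself did not mark epcam-positive cells. It had 188, 135 and 0 CPM in those of HepABC HCC, CreLox HCC and no HCC, from 8, 5 and 0 UMIs, against 241, 582 and 64.0 CPM in comparison cells, and 396 and 1971 CPM in the epcam-negative cells of HepABC HCC and CreLox HCC. S100a10b had 493, 1570 and 351 CPM in epcam-positive cells of HepABC HCC, CreLox HCC and no HCC, against 408, 550 and 298 CPM in comparison cells, with ratios of 1.21 (0.745 to 1.86), 2.86 (2.16 to 3.71) and 1.18 (0.817 to 1.65). By the limit of 500 CPM for both genes together, 8 of 17 epcam-positive cells were s100a10-high in HepABC HCC (47.1%, 23.0 to 72.2). In CreLox HCC 13 of 16 were (81.3%, 54.4 to 95.95), and in no HCC 9 of 37 (24.3%, 11.8 to 41.2). Of the other hepatocyte-like cells under 10000 UMIs in no HCC, 6 of 259 were high (2.32%). Among cells in hepatocyte-like clusters under 10000 UMIs, the s100a10-high share was 40.8% of those meeting the rule (33.6 to 48.2) and 34.6% of the others (29.8 to 39.6) in HepABC HCC. In CreLox HCC it was 75.6% of those meeting the rule (64.9 to 84.4) and 49.4% of the others (46.6 to 52.3), and within the 3 depth ranges given above 81.3% and 55.5%, 77.3% and 40.9%, and 68.2% and 27%. The CreLox HCC share of cells meeting the rule was the higher at each depth, from 16, 44 and 22 such cells. Under 2000 UMIs the intervals overlapped (54.4 to 95.95 and 51.98 to 59.04).

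Epcam-positive cells were then compared between livers, each HCC liver over no HCC. Genes with 10 or more UMIs, in at least 20% of the cells, in either set of epcam-positive cells were counted. In HepABC HCC 68 of 1104 genes were past the fold upward (6.16%) and 110 downward (9.96%), and in CreLox HCC 9 of 1065 (0.845%) and 42 (3.94%). These counts rested in part on a few deep cells: without the 3 cells of the most UMIs in each library, an alternative chosen after seeing the data, 8 of 922 genes were past the fold upward and 76 downward in HepABC HCC, and 10 of 920 upward and 57 downward in CreLox HCC. Over all epcam-positive cells, several of the genes named above had lower levels in HepABC HCC than in no HCC: anxa4 had 0.418 times the no HCC level (0.375 to 0.466), lgals2b 0.467 times (0.418 to 0.520), si:dkey-96g2.1 0.424 times (0.371 to 0.483) and aqp8a.1 0.406 times (0.306 to 0.532). In CreLox HCC the same genes stood at 0.743 (0.679 to 0.813), 0.955 (0.875 to 1.04), 0.847 (0.762 to 0.941) and 1.39 times (1.16 to 1.66). Without the 3 deepest cells of each library the ratios were 0.748, 0.771, 0.694 and 0.602 for HepABC HCC and 0.456, 0.709, 0.666 and 1.36 for CreLox HCC. The order of both HCC livers was then the other way for anxa4 (0.669 to 0.836 and 0.397 to 0.523). For lgals2b (0.686 to 0.865 and 0.628 to 0.799) and si:dkey-96g2.1 (0.606 to 0.793 and 0.580 to 0.763) it was too, but the intervals overlapped. The order over all epcam-positive cells thus rests on the 3 deepest cells for these genes, and none of the 4 genes was past the fold. The intervals cover counting error only and not the spread between cells or animals. Whether they overlap therefore does not settle either order.

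A keratin was among the genes higher in both HCC livers. Krt94 had 610 CPM in the 17 epcam-positive cells of HepABC HCC and 487 CPM in the 16 of CreLox HCC, against 9.76 CPM in the 37 of no HCC, from 26, 18 and 1 UMIs. It was found in 7 and 7 of the HCC cells and in 1 cell of no HCC, and 1 HepABC HCC cell held 50% of its UMIs there. In the comparison cells of HepABC HCC, CreLox HCC and no HCC it had 34.8, 67.0 and 276 CPM, the opposite order. Other differences were shared with the comparison cells of the same liver. Afp4.1 had 10519 CPM in HepABC HCC epcam-positive cells against 332 CPM in those of no HCC, beside 13459 and 1187 CPM in comparison cells, and rbp4, a hepatocyte gene, had 3052 against 97.6 CPM beside 1437 and 713 CPM. A single cell held 45.5% of these HepABC HCC UMIs of afp4.1 and 78.5% of those of rbp4. Thrsp, a lipogenic gene, was lower in both sets, with 0 and 244 CPM in the epcam-positive cells of HepABC HCC and CreLox HCC against 1064 CPM in no HCC, beside 51.2 and 280 against 3799 CPM in comparison cells, and its 9 UMIs in CreLox HCC came mostly from 1 cell (77.8%). The part of free hepatocyte RNA in these 3 differences was not tested.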

How the data were processed

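Counts came from 3 droplet libraries, 1 liver per group. As deposited by the authors, the files hold raw UMI counts for each gene in each cell and lists of genes and barcodes. Per the labels and methods they had used Cell Ranger 2.2.0 with the GRCz11 genome and transgene sequences, separated cells from empty droplets with EmptyDrops (droplets at or under 500 UMIs taken as empty) and removed cells with outlying quality measures. Free RNA was not removed, so RNA of abundant hepatocyte genes may be counted in other cells, and its part was not tested. Total depth was 47680774, 9066031 and 5404507 UMIs in HepABC HCC, CreLox HCC and no HCC, and the epcam-positive cells held 42591, 36936 and 102433 of them. Genes are given by symbol, and no coordinates or sequences were used here.

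The rule was applied to the counts as deposited. UMIs were summed over the cells of a set, and CPM carry exact Poisson intervals. Ratios had exact intervals for 2 Poisson counts and shares exact Clopper-Pearson intervals, all at 95%. A count of 0 was given a floor of 3 counts. Log2 folds used a pseudocount of 10 CPM. Cells were thinned to 1000 UMIs with a fixed seed. Clusters came from scanpy 1.11.5 and leidenalg 0.10.2, without the 9 genes of the rule, from 2000 variable genes, 12 components in HepABC HCC and 16 in the other libraries, 20 neighbours and resolution 1.5, a resolution chosen after seeing the data. Cluster names were rebuilt from marker lists, so they may differ from the study's. The list that named biliary-like clusters included the 9 genes of the rule. A doublet score was used to leave out 66, 36 and 9 cells (2.30%, 1.70% and 0.836%) in an alternative only. TMM factors came from edgeR 4.0.16. The other tools were Python 3.11.15, numpy 2.4.6, scipy 1.17.1, pandas 2.3.3, matplotlib 3.10.9 and R 4.3.3. Scripts were tested on simulated data.

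The cells and gene lists were chosen with earlier results of these data known. Genes were named by rule: the 9 genes of the rule, in each library the 12 with the highest fold outside it (UMIs in at least 20% of cells) and the 8 with the lowest (at least 200 CPM in comparison cells), the 15 shared with s100a10-high cells by the lower of the 2 folds, those past the fold in every library, and list members. Genes named for epcam-positive cells alone (such as krt94, entpd8, pdzk1ip1 and cav2) were chosen after their values were seen. No test was made, because each group has 1 library.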

Additional observations from a re-analysis of the deposited data

Results flagged for a closer look

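Hepatocyte marker genes had opposite directions in the livers when all cells meeting the rule were set against the other cells. Their median log2 fold was 0.50 for HepABC HCC and 0.38 for CreLox HCC, where most of these cells were hepatocyte-like, and -1.71 in no HCC, where most were biliary-like. With 1 library per group this difference was not tested.

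Cells of 10000 UMIs or more were left out by the rule, yet many had UMIs in 3 or more of its 9 genes: 92.1% of the HepABC HCC ones (1785 of 1938), 74.7% for CreLox HCC (139 of 186) and 6.57% for no HCC (14 of 213), differences that were not tested. Of these deep cells, 98.3%, 97.1% and 100% were in hepatocyte-like clusters. Deep cells with an epcam UMI numbered 16 for HepABC HCC, 1 for CreLox HCC and 1 for no HCC. In HepABC HCC 5 of the 16 had 2 or more epcam UMIs, with a median of 7 of the 12 genes with the highest fold in no HCC, against a median of 4 over all 16. Hepatocyte-like cells of any depth in HepABC HCC had medians of 4 (s100a10-high) and 3 (s100a10-low). Hepatocyte marker UMIs made up a median of 19.1% of each of the 5 cells and 19.6% of each of the 16.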

How the results depend on the processing

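No paired analysis was possible because each group has 1 library. Alternatives that select cells by epcam or by the biliary-like cluster were chosen after seeing the data. The share of cells meeting the rule, 22.6% in HepABC HCC, became 46.4% with 2 or more genes, 5.60% with 4 or more, 69.6% without the limit of 10000 UMIs, 2.53% after thinning and 1.83% with an epcam UMI. In CreLox HCC, 5.19% became 21.8%, 0.779%, 11.3%, 1.501% and 0.831% under the same settings. In no HCC, 4.98% became 8.22% with 2 or more genes. Genes past the fold over other cells, 2 in HepABC HCC, became 7 with 4 or more genes, 4 without minimums, 40 with epcam, 39 with 2 or more epcam UMIs and 37 in the biliary-like cluster. In CreLox HCC 18 became 59 with 4 or more genes, 78 with epcam, 2 without, 78 with 2 or more epcam UMIs and 79 in the biliary-like cluster. In no HCC 191 became 338 without minimums and 53 without epcam. Further biliary genes past the fold changed to 4 with epcam in HepABC HCC (0 before), to 0 without epcam in CreLox HCC (4 before) and to 1 without epcam in no HCC (7 before). Over hepatocyte-like cells, 1 gene in HepABC HCC became 12 with 4 or more genes, 3 with a pseudocount of 1 CPM and 65 with epcam. In CreLox HCC 36 became 128, 61 and 114, and 3 without epcam, and in no HCC 430 became 95 without epcam. Shared genes became 4 with a pseudocount of 1 and 1 with epcam in HepABC HCC (0 before). In CreLox HCC, 40 became 22 with hepatocyte-like cells under 10000 UMIs only, 62 with a pseudocount of 1, 2 with a log2 fold of 2 in both and 15 with epcam. Without epcam, log2 folds changed sign for si:dkey-96g2.1 in HepABC HCC (-0.83) and CreLox HCC (-0.40), for cx30.3 (-0.11), spint2 (-0.34) and zgc:193726 (-0.038) in CreLox HCC and for zgc:198329 in no HCC (-0.16). The log2 level of fabp10a in epcam-positive over leukocyte-like cells of CreLox HCC, 0.27, became -0.32 in the biliary-like cluster and -0.44 with 2 or more epcam UMIs. Without the 3 deepest cells it rose to 0.71. In HepABC HCC the same level, 0.91, fell to 0.27 with 2 or more epcam UMIs and stayed positive. The cause was not tested.

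Among epcam-positive cells the lowest log2 fold of the 12 genes over all settings was 2.44 for HepABC HCC, 3.75 for CreLox HCC and 4.95 for no HCC, and none changed sign. The 17 and 16 epcam-positive cells of the HCC livers hold too few UMIs to count most genes, so a gene missing there was not detectable at this depth. Leaving out doublets, or leaving mitochondrial and the 20 highest genes out of the totals, moved no library's count of genes past the fold over other cells by more than 1.5 times.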

Other observations

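The 6 cells of no HCC that met the rule without epcam were a mixture. Of these, 2 lay in the biliary-like cluster, 2 in hepatocyte-like clusters and 2 in clusters left without a name. Krt4 had 2094 CPM in them, from 41 UMIs in 2 cells, against 44.5 CPM in comparison cells. The keratin krt94 (5056 against 276 CPM), the annexin anxa1a (4852 against 89.7 CPM) and s100a10a (1788 against 64.0 CPM) were likewise found in 2 of the 6 cells, and s100a10b (6129 against 298 CPM) in 3. In the epcam-positive cells of the same liver anxa1a and s100a10a had 0 UMIs. These genes were chosen after their values were seen, and they do not describe the 6 cells as a group. The 2 cells without a cluster name lay in a cluster of 15 cells, whose leading genes included anxa1a, s100a10a and krt4.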
